A study of Mus musculus with 9 samples.

Results

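Cell cycle entry genes were described in MC3T3-E1 cells, a mouse calvarial pre-osteoblast line that matures toward osteocyte-like cells. The group held 10 genes of the 55416 in the deposited tables, picked by symbol with earlier results of these data known. They were the D-type cyclins Ccnd1, Ccnd2 and Ccnd3, the E-type cyclins Ccne1 and Ccne2, the activator E2Fs E2f1 and E2f2, and the CIP/KIP inhibitors Cdkn1a, Cdkn1b and Cdkn1c. Of these, 9 passed the filter on low counts, while Cdkn1c did not.

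All cells were wild type and were differentiated in osteogenic medium with 10 mM β-glycerophosphate (BGP), 50 µg/ml ascorbic acid and 0.1 µM dexamethasone. Per the labels this medium was kept until day 27, whereas the methods of the study describe a last week without BGP. Cells then received 4 mM BGP, an organic phosphate, or 4 mM NaHPO4 (Na2HPO4/NaH2PO4), an inorganic phosphate, for 16 h, or nothing further (Control). Each condition had 3 libraries. The labels do not say that these were separate cultures, so that p-values measure the spread between libraries, which may be technical. The model is a single cell line, and the medium and serum themselves hold phosphate in every condition. The comparisons ask how each phosphate source changed transcription and whether the sources differed at the same dose and time.

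Passage from G1 into S phase is driven by D-type cyclins, which activate CDK4 and CDK6 after mitogen signals, and by E-type cyclins, which activate CDK2. These kinases phosphorylate the retinoblastoma protein, which then releases activator E2Fs, and E2Fs switch on genes for DNA replication, among them the E-type cyclins and E2Fs themselves. CIP/KIP proteins bind and restrain cyclin-CDK complexes. Maturing osteoblasts leave the cell cycle as they differentiate.

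Total counts were 21390839 to 28234404 per library, and NaHPO4 libraries (25203779 to 28234404) were on the whole deeper than Control libraries (21390839 to 25646046). All 13 osteoblast and osteocyte markers passed the filter, with a summed level of 56532 to 61916 CPM (read counts relative to the TMM-scaled library size). Endothelial and muscle markers summed to at most 0.348 CPM, with Kdr, Myf5, Myod1 and Myog at 0 counts in every library. Of the 6 adipocyte markers 1 passed the filter and their sum was 10.6 to 16.2 CPM, and of the 5 macrophage markers 3 passed, with a sum of 18.3 to 26.8 CPM, nearly all from Lyz2. Chondrocyte markers summed to 185 to 446 CPM, with Matn1 at 0 counts.

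Per kilobase of exons, the order of the members was the same in all 3 conditions. In Control cells, the level of Ccnd1 was 96.7 ± 3.32 CPM per kb (SD, n = 3), followed by Cdkn1a at 75.3 ± 0.502 and Cdkn1b at 31.4 ± 1.03. Ccnd3 followed at 20.95 ± 0.614, Ccnd2 at 16.3 ± 2.72, E2f1 at 6.97 ± 0.128 and Ccne2 at 4.36 ± 0.0877 CPM per kb. The lowest levels per kb were those of Ccne1 at 1.53 ± 0.0542, E2f2 at 0.617 ± 0.119 and Cdkn1c at 0.0657 ± 0.0197. Neighbours in this order did not overlap between libraries in any condition (27 of 27 neighbouring pairs). With the length of the longest transcript in place of all exons, Ccnd3 and Cdkn1b changed places, since the Control level of Ccnd3 became 50.2 CPM per kb and that of Cdkn1b remained 31.4, and Ccne1 moved to 2.67. The cyclins and inhibitors were thus led by 1 gene each. Ccnd1 held 69.8% to 72.2% of the summed D-type level, Ccne2 held 72.1% to 74.6% of the E-type level and Cdkn1a held 68.9% to 71.0% of the CIP/KIP level, as condition means per length of all exons. With the longest transcript these shares were 58.8% to 61.7%, 61.6% to 64.6% and 76.5% to 78.3%.

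**Figure D1:**
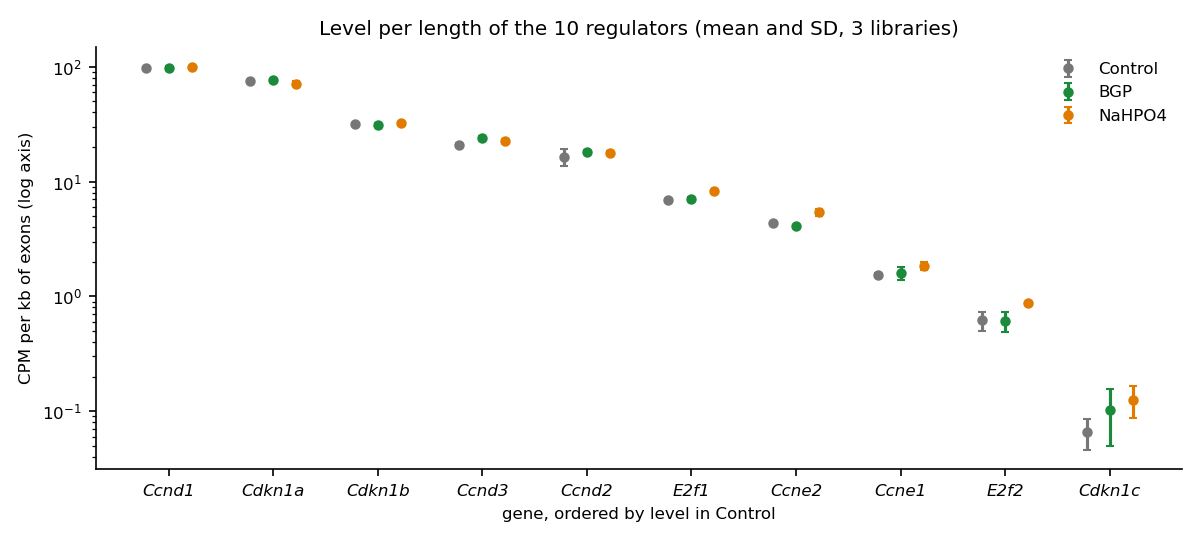
Level of each of the 10 genes in CPM per kb of exons (log axis) in Control, BGP and NaHPO4. Points are means and bars SDs over 3 libraries. Levels fall from 96.7 CPM per kb for Ccnd1 to 0.0657 for Cdkn1c in Control cells, in the same order in each condition.

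With BGP, 1 member, Ccnd3, passed the test against Control, and 2, with Ccnd2, did so in 2 alternative fits given for that gene. Ccnd3, on chromosome 17 (47815767 to 47910624, plus strand, GRCm39, 5 exons), encodes cyclin D3. Its level was 193, 188 and 200 CPM in the Control libraries and 227, 229 and 212 CPM with BGP. All BGP libraries lay above all Control libraries. The rise was 1.15-fold (95% interval 1.09 to 1.21), a log2FC of 0.20 (SE 0.0380, edgeR's quasi-likelihood test with Benjamini-Hochberg adjustment, FDR 0.000865). Thus 1 of 9 tested members passed an FDR of 0.05, against 2.53% of all 13679 tested genes (1.86% called higher and 0.665% lower). In bulk RNA, fewer cells of a type and less RNA per cell cannot be told apart. Summed chondrocyte markers were also higher with BGP, at 340 to 446 CPM against 248 to 306 CPM in Control, almost entirely from Col2a1, and their part in this result was not tested.

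NaHPO4 gave Ccnd3 levels of 211, 200 and 218 CPM. These also lay above Control, but the log2FC of 0.11 (SE 0.0378) missed the threshold (edgeR FDR 0.0619). It passed in 5 of 18 alternative fits, among them those without Control replicate 3 or NaHPO4 replicate 2. Between the phosphates, Ccnd3 differed by a log2FC of 0.09 (95% interval 0.01 to 0.16, edgeR FDR 0.208), so that a difference was not shown.

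Ccnd3 has 2 starts in RefSeq, and the counts do not tell which was used. The 250 bases before each are shown because Ccnd3 was the member that rose with BGP, with GC boxes (GGGCGG, either strand) and CCAAT boxes in capitals. The outer is chr17:47504801-47505050 and the inner chr17:47593217-47593466 (GRCm38.p6, plus strand). GC boxes occur in 38.2% and CCAAT boxes in 41.1% of all genes' windows.
Ccnd3 outer start: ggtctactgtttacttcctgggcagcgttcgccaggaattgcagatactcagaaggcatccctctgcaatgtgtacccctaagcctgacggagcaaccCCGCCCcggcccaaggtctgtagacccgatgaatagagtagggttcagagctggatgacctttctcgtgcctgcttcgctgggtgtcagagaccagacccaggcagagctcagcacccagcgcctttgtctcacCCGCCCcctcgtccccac
Ccnd3 inner start: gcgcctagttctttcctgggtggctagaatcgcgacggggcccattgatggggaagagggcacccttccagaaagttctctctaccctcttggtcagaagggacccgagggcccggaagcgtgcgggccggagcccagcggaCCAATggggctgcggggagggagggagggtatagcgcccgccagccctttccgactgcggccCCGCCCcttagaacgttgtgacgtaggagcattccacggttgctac

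Ccnd1 and Ccnd2 did not pass the test in the fit of all 9 libraries. Ccnd1, on chromosome 7 (144483668 to 144493662, minus strand, 5 exons), encodes cyclin D1, a classical mitogen-induced gene. Its level was 473, 471 and 444 CPM in Control, 485, 454 and 464 CPM with BGP, and 467, 483 and 467 CPM with NaHPO4. The conditions overlapped, and the log2FC against Control was 0.02 (95% interval -0.05 to 0.08) with BGP and 0.03 (-0.04 to 0.10) with NaHPO4. Ccnd2, on chromosome 6 (127102125 to 127129156, minus strand, 5 exons), encodes cyclin D2 and had 129, 151 and 180 CPM in the Control libraries, the widest spread among the D-type cyclins. With BGP it had 176, 165 and 171 CPM and with NaHPO4 162, 173 and 170 CPM, all inside the Control range. Its log2FC was 0.15 with BGP (edgeR FDR 0.226) and 0.13 with NaHPO4 (edgeR FDR 0.204). These values depended on single Control libraries. Without Control replicate 1, the log2FC of Ccnd2 was 0.04 with BGP (edgeR FDR 0.843) and 0.02 with NaHPO4 (edgeR FDR 0.901), and without Control replicate 3 it was 0.28 (edgeR FDR 0.000211) and 0.26 (edgeR FDR 0.000264). Ccnd2 was also called in both comparisons without the filter on low counts (edgeR FDR 0.0104 and 0.0208).

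**Figure D2:**
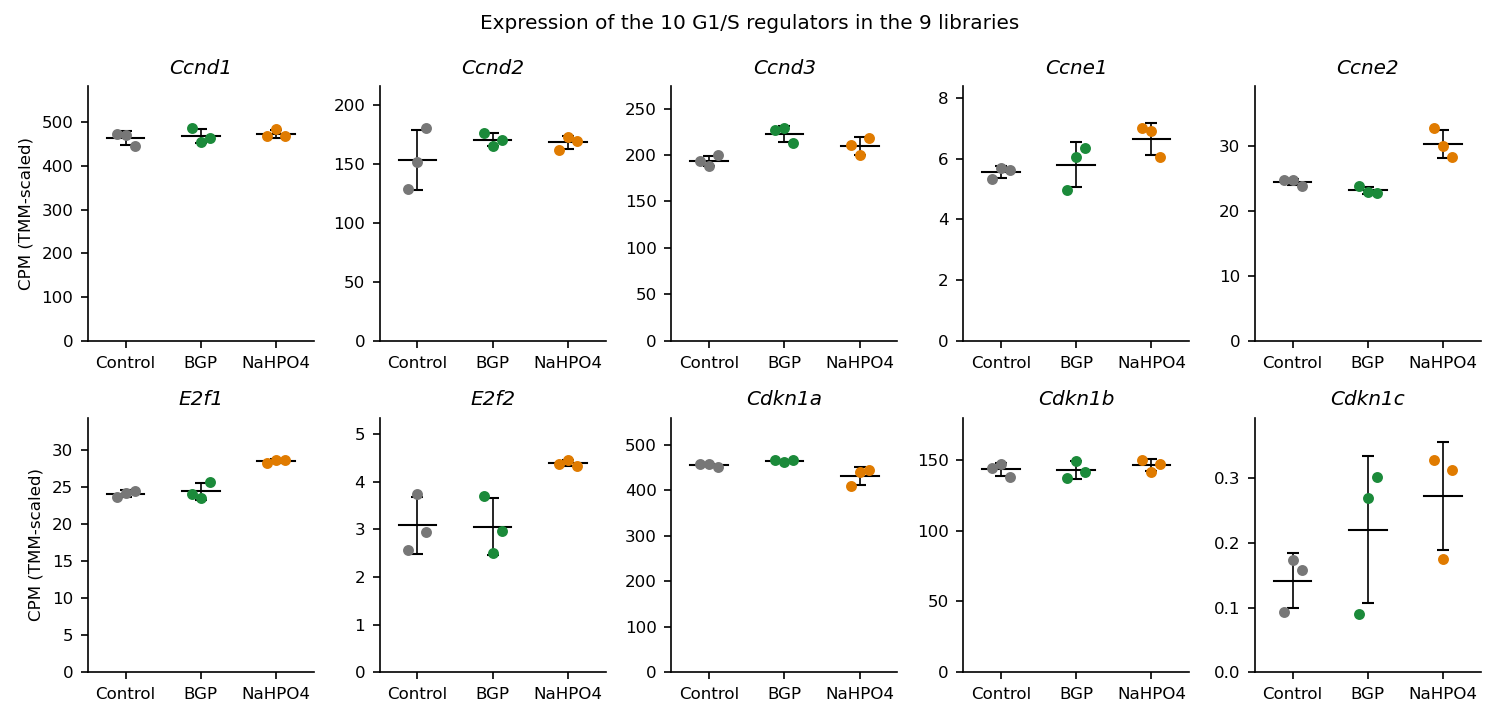
CPM of each of the 10 genes by condition. Each point is 1 library, lines are means and error bars SDs over 3 libraries, and each axis starts at 0. Among the tested genes, Ccnd3 and Cdkn1a with BGP, and Ccnd3, Ccne1, Ccne2, E2f1 and E2f2 with NaHPO4, lie wholly above Control. Ccne2 with BGP and Cdkn1a with NaHPO4 lie wholly below it, whereas Ccnd1 and Cdkn1b overlap in all conditions.

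With NaHPO4, the E-type cyclin Ccne2 and the activator E2f1 rose, which made 2 of 9 tested members at an FDR below 0.05, against 7.38% of all tested genes (3.43% higher and 3.95% lower). Ccne2, on chromosome 4 (11190303 to 11204947, plus strand, 11 exons), encodes cyclin E2. It had 24.8, 24.8 and 23.9 CPM in Control and 32.7, 29.98 and 28.4 CPM with NaHPO4. The groups did not overlap, and the rise was 1.24-fold (95% interval 1.13 to 1.36), a log2FC of 0.31 (SE 0.0637, edgeR FDR 0.00105). With BGP, Ccne2 had 23.8, 22.9 and 22.8 CPM, a log2FC of -0.08 against Control (95% interval -0.22 to 0.06, edgeR FDR 0.668). Compared directly at the same dose and time, Ccne2 was lower with BGP than with NaHPO4 by a log2FC of -0.39 (SE 0.0644, edgeR FDR 8.05e-05).

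Ccne1, on chromosome 7 (37797404 to 37808264, minus strand, 12 exons), encodes cyclin E1. Its level was 5.33, 5.70 and 5.63 CPM in Control, 4.96, 6.06 and 6.36 CPM with BGP and 6.99, 6.92 and 6.05 CPM with NaHPO4. The NaHPO4 libraries were above Control, with a log2FC of 0.26 that did not pass the test (95% interval 0.00 to 0.52, edgeR FDR 0.251). Ccne1 had 110 to 197 counts per library, and the SE of this log2FC was 0.129, against 0.0637 for Ccne2.

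E2f1, on chromosome 2 (154401326 to 154411812, minus strand, 7 exons), had 23.7, 24.2 and 24.5 CPM in Control, 24.1, 23.5 and 25.7 CPM with BGP and 28.2, 28.6 and 28.7 CPM with NaHPO4. The NaHPO4 libraries stood above all others and lay close together. The rise with NaHPO4 was 1.18-fold (95% interval 1.08 to 1.29), a log2FC of 0.24 (SE 0.0618, edgeR FDR 0.0109), whereas the log2FC with BGP was 0.02 (SE 0.0642, edgeR FDR 0.940). E2f1 was lower with BGP than with NaHPO4 by a log2FC of -0.22 (SE 0.0619, edgeR FDR 0.0257). Leaving out Control replicate 1 ended the call against Control (edgeR FDR 0.0591), and leaving out BGP replicate 1 or 2 or NaHPO4 replicate 2 or 3 ended the call between phosphates (edgeR FDR 0.0776 to 0.138).

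E2f2, on chromosome 4 (135899585 to 135923368, plus strand, 7 exons), was measured with 55 to 127 counts per library. It had 2.57, 3.74 and 2.95 CPM in Control, 3.70, 2.52 and 2.97 CPM with BGP and 4.37, 4.46 and 4.33 CPM with NaHPO4. The NaHPO4 libraries lay above all others, and its log2FC of 0.50 was the largest of the tested members, but with the largest error (SE 0.173, edgeR FDR 0.0715). Between phosphates the log2FC was -0.52 (SE 0.174, edgeR FDR 0.0772). The call against Control was reached with total counts (FDR 0.0489), edgeR's likelihood ratio test (FDR 0.0318) or without Control replicate 2 (FDR 0.0310), and that between the phosphates with the likelihood ratio test (FDR 0.0322) or without BGP replicate 1 (FDR 0.0450).

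**Figure D3:**
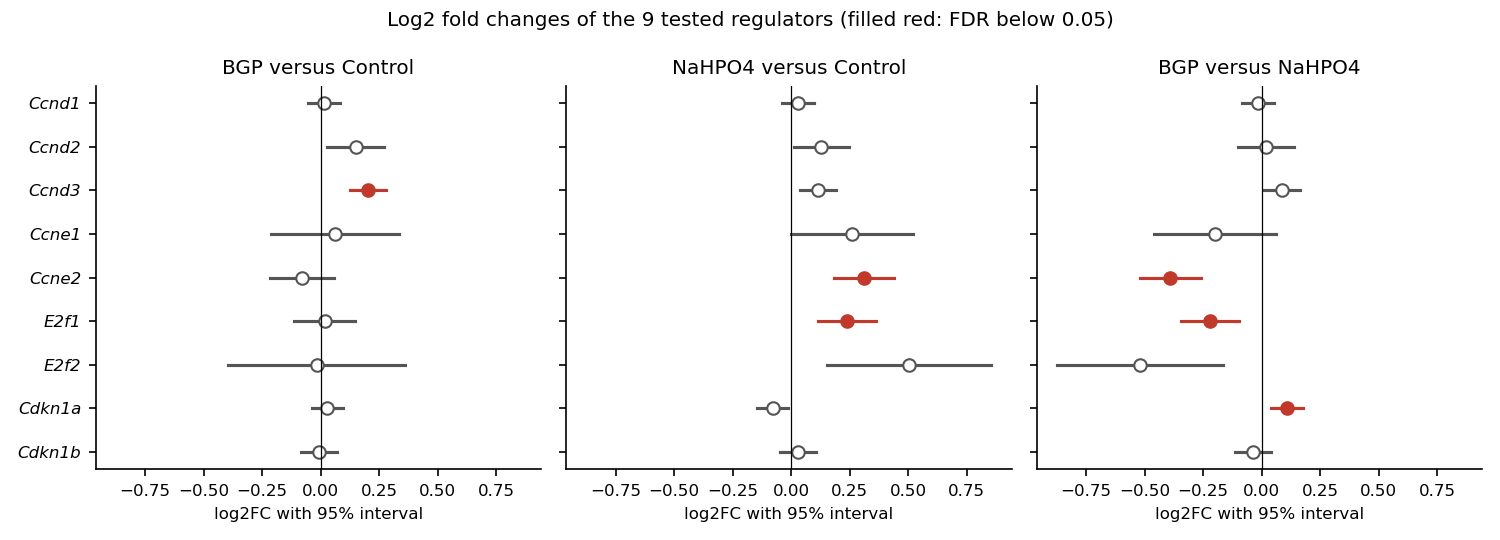
Log2FC of the 9 tested genes in the 3 comparisons, with 95% intervals from edgeR. Filled red points have an FDR below 0.05. Ccnd3 stands out with BGP (0.20), Ccne2 (0.31) and E2f1 (0.24) with NaHPO4, and Ccne2, E2f1 and Cdkn1a differ between the phosphates.

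Among the inhibitors, Cdkn1a differed between the phosphates. Cdkn1a, on chromosome 17 (29309936 to 29319701, plus strand, 3 exons), encodes p21, a p53 target that inhibits cyclin-CDK2. Its level was 457, 457 and 452 CPM in Control, 466, 462 and 465 CPM with BGP and 408, 440 and 445 CPM with NaHPO4. The BGP libraries were all above and the NaHPO4 libraries all below Control, but neither difference from Control passed the test, with log2FCs of 0.03 (edgeR FDR 0.776) and -0.08 (edgeR FDR 0.155). BGP against NaHPO4 gave a log2FC of 0.11 (95% interval 0.04 to 0.18, edgeR FDR 0.0452), and the call was lost in 10 of 18 alternative fits, among them total counts (FDR 0.170) and the fit without NaHPO4 replicate 1 (FDR 0.254). With Ccne2 and E2f1 this made 3 of 9 members that differed between the phosphates, against 5.38% of all tested genes (3.33% higher with BGP and 2.05% lower).

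The region before the outer start of Cdkn1a (chr17:29090729-29090978, GRCm38.p6, plus strand) is shown for its p53 half-sites, of which 2 were found, in capitals. Only exact matches to RRRCWWGYYY (R is A or G, W is A or T, Y is C or T) were marked. Stretches that differ from these letters stay in lower case. The window of an inner start, 2790 bases inside the gene edge, held 0 half-sites. A p53 half-site lies in the windows of 9.55% of all genes.
Cdkn1a: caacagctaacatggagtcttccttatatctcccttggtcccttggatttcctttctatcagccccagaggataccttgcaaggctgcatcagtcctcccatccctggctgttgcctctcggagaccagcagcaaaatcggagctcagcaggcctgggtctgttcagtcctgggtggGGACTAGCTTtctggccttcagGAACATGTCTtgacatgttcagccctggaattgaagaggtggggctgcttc

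Cdkn1b, on chromosome 6 (134897364 to 134902476, plus strand, 2 exons), encodes p27, an inhibitor associated with quiescence. It had 144, 147 and 138 CPM in Control, 137, 149 and 141 CPM with BGP and 150, 141 and 147 CPM with NaHPO4. The conditions overlapped, and the log2FC was -0.01 (95% interval -0.09 to 0.07) with BGP and 0.03 (-0.05 to 0.11) with NaHPO4. Cdkn1c, on chromosome 7 (143012069 to 143014806, minus strand, 4 exons), encodes p57 and was nearly unread, with 2, 4 and 4 counts in Control, 2, 6 and 7 with BGP and 9, 5 and 8 with NaHPO4. A difference of Cdkn1c was not detectable at this depth.

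Effects were small throughout. No member combined an FDR below 0.05 with an absolute log2FC above 0.5 in any comparison. Over all tested genes 0.556%, 0.716% and 0.585% did in BGP versus Control, NaHPO4 versus Control and BGP versus NaHPO4. At such shares 0 of 9 is near the background and does not set the members apart. Libraries did not overlap for 3, 6 and 4 of 9 members in these comparisons, against 18.5%, 23.2% and 21.2% of tested genes. BGP and NaHPO4 were compared with the same Control libraries, so that both sets of values share the error of those libraries.

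Reads of overlapping genes limit some of these values. Exons of Ccnd1 overlap LTO1 on the opposite strand, with 47% of the 50-base windows of its transcripts shared. Those of Ccne2 overlap Ints8 (11%) and those of Cdkn1c overlap Gm44732 (21.8%). Those of Ccnd2 and Cdkn1a overlap antisense transcripts (13.5% and, other genes included, 11.8%). Exons of Ccnd3 overlap Bysl and Gm64596 on the opposite strand, with 6.61% of windows shared with these and other genes. Exons of Ccne1 overlap 1600014C10Rik (1.69%, other genes included) and those of Cdkn1b overlap Gm44238 (4.13%). The kit was stranded, but the use of strand in counting is not given in the sources used here. Reads of such pairs may therefore be mixed. E2f1 and E2f2 overlap no other gene, though 1.47% of the windows of E2f1 are shared with other genes.

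Genes on which E2Fs act were higher with NaHPO4 than in Control. The study had already reported a gene set of E2F targets as enriched with NaHPO4. The list here was picked with earlier results of these data known, so its counts are no separate support. Of 28 E2F target genes tested, 17 were higher and 0 lower with NaHPO4 at an FDR below 0.05, against 3.43% of all tested genes called higher. Their median log2FC was 0.23, against 0.00 over all tested genes, and each of the 28 had a log2FC above 0. BGP gave 0 calls by edgeR's quasi-likelihood test and 0 with DESeq2, with a median log2FC of -0.02. At an unadjusted edgeR p below 0.05 there were 2 genes, against 1831 of all 13679 tested genes. Between the phosphates 19 of 28 were lower with BGP and 0 higher, with a median log2FC of -0.25, against 2.05% of all tested genes called lower.

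Mcm6, a subunit of the replicative helicase, had 73.3, 73.2 and 75.0 CPM in Control, 73.6, 75.1 and 72.4 CPM with BGP and 93.8, 93.8 and 94.6 CPM with NaHPO4. The NaHPO4 libraries were far above the others, with a log2FC of 0.35 (SE 0.0393, edgeR FDR 4.61e-08). Mcm2, Mcm3, Mcm4, Mcm5 and Mcm7, the other subunits, rose by log2FCs of 0.20 to 0.32. Uhrf1, which guides maintenance of DNA methylation, had 56.7, 57.2 and 57.6 CPM in Control, 51.7, 50.8 and 52.5 CPM with BGP and 66.5, 74.7 and 67.6 CPM with NaHPO4. Its 3 conditions did not overlap, with log2FCs of 0.28 for NaHPO4 against Control (edgeR FDR 4.92e-05) and -0.43 for BGP against NaHPO4 (edgeR FDR 4.87e-08). BGP against Control, with a log2FC of -0.15, did not pass the test (edgeR FDR 0.121). Summed proliferation markers were 306 to 324 CPM with NaHPO4, above the 274 to 302 CPM of Control, while BGP (268 to 277 CPM) overlapped Control. With NaHPO4, 2 of 5, Mki67 and Top2a, were called higher, against 3.43% of all tested genes. The Mki67 libraries overlapped those of Control. The log2FCs of the 5 ranged from 0.04 to 0.23. Of the 13 osteoblast and osteocyte markers, 4 were called lower with NaHPO4, against 3.95% of all tested genes. They were Col1a1 (log2FC -0.22, edgeR FDR 2.47e-05), Alpl (-0.21, edgeR FDR 0.00128), Bglap (-0.15, edgeR FDR 0.0146) and Sost (-1.68, edgeR FDR 0.00272). Another 2, Dmp1 and Spp1, were called higher, against 3.43% of all tested genes. The summed level was 56532 to 59081 CPM with NaHPO4 against 56705 to 60663 in Control. The value of Sost rests on few reads, 97 counts in Control and 35 with NaHPO4, summed over 3 libraries each. Summed chondrocyte markers were 185 to 264 CPM with NaHPO4 against 248 to 306 in Control, and Col2a1 was lower (log2FC -0.45, edgeR FDR 0.00141). The part of these markers, and of the greater depth of the NaHPO4 libraries, in the rise of Ccne2, E2f1 and the E2F target genes was not tested.

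**Figure D4:**
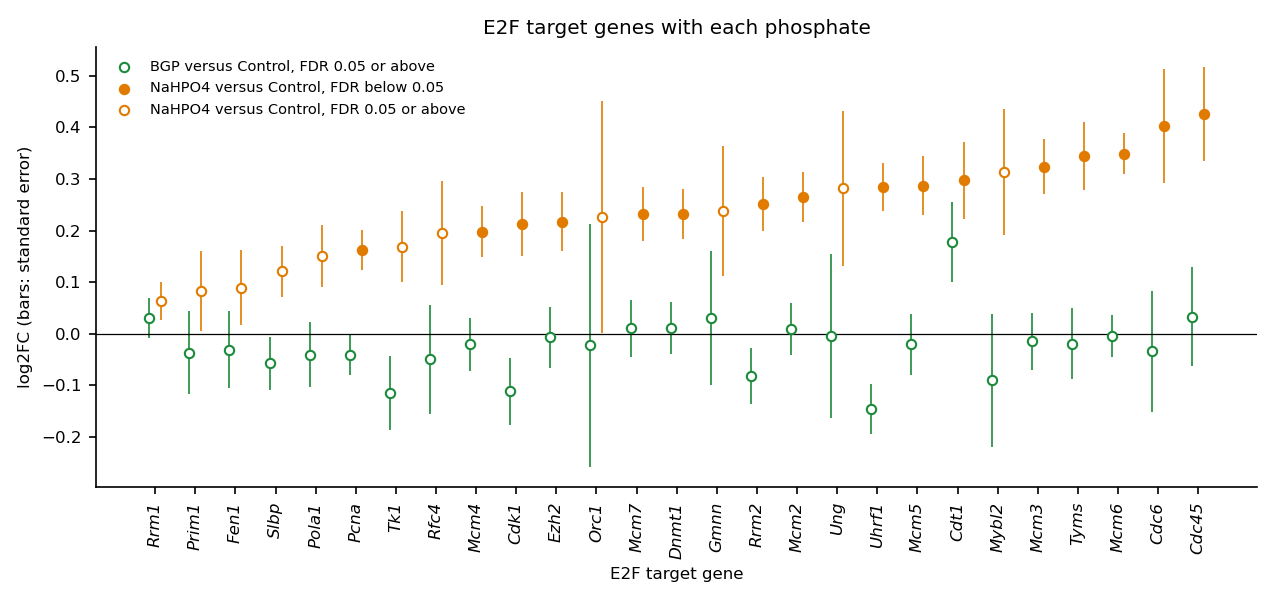
Log2FC of 27 of the 28 E2F target genes for BGP (green) and NaHPO4 (orange) against the same Control libraries, ordered by the NaHPO4 value, with standard errors. Filled points have an FDR below 0.05. All orange points lie above 0, with 16 of them filled, whereas no green point is filled.

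The E2F letters TTTCCCGC, TTTGGCGC, TTTCGCGC and TTTGCCGC were searched on both strands in windows from 250 bases before to 50 bases after the start of each gene (RefSeq, GRCm38.p6). Of 27025 genes 2.6% held a match, against 12 of 25 E2F target genes with a window and 10 of the 15 with a window among those higher with NaHPO4. The 25 genes were picked as E2F targets, and the 15 also by their NaHPO4 call in these data. These shares are therefore no test of E2F action. A match is a description of letters and not of binding. No printed match overlaps a GC or CCAAT box. Windows were at hand for 6 of the 10 members, and among these a match lay only in that of E2f2, starting at base 40 of the gene. The start used for the window of E2f1 lies 466 bases inside the outer edge of the gene, so that the bases before that edge were not searched. The E2f2 match is shown with matches of 4 genes of the replication machinery that rose with NaHPO4. Each is given as 28 bases with every match in capitals, in the direction of the gene. Mcm5 and Mcm6 each hold 2 overlapping matches, on opposite strands, shown as 1 run of capitals. The positions are chr4:136172296-136172323 for E2f2 (plus strand), chr1:20820276-20820303 for Mcm3 (minus), chr8:75109346-75109373 for Mcm5 (plus), chr1:128359798-128359825 for Mcm6 (minus) and chr11:98908003-98908030 for Cdc6 (plus), which loads the helicase.
E2f2: aatttggcggcatatagTTTGGCGCtaa
Mcm3: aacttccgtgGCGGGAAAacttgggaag
Mcm5: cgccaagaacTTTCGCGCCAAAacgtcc
Mcm6: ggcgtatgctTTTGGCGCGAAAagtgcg
Cdc6: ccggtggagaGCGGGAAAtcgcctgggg

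The p53 target genes changed in both directions. Of 15 tested, 1 rose and 1 fell with BGP (2.53% of all tested genes were called), with a median log2FC of 0.00. An unadjusted edgeR p below 0.05 was found for 6 of 15, against 1831 of all 13679 tested genes. With NaHPO4, 1 rose and 2 fell (7.38% of all tested genes were called), with a median of -0.05. Here 7 of 15 had an unadjusted edgeR p below 0.05, against 2728 of all 13679 tested genes. Btg2, an antiproliferative gene, rose with BGP (log2FC 0.35, SE 0.0757, edgeR FDR 0.00488) and exceeded its NaHPO4 level there by a log2FC of 0.55 (edgeR FDR 4.01e-06). Sesn1, which restrains mTORC1, was lower with each phosphate (log2FC -0.16 in both, edgeR FDR 0.00476 with BGP and 0.00134 with NaHPO4). Plk2, a stress-induced kinase, fell with NaHPO4 (log2FC -0.32, edgeR FDR 0.00233), and Ccng1 rose (log2FC 0.10, edgeR FDR 0.0491).

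By edgeR, none of the 8 CDK partners and activators or 7 genes of G1/S protein turnover was called against Control with either phosphate. Over all tested genes 2.53% were called with BGP and 7.38% with NaHPO4. At an unadjusted edgeR p below 0.05 each list had 0 genes with BGP and 1 with NaHPO4. Of all 13679 tested genes, 1831 and 2728 had such a p. Ccna2, a later S phase cyclin, was lower in the BGP libraries in the direct comparison of phosphates (log2FC -0.23, edgeR FDR 0.0132). Of the INK4 inhibitors, which bind CDK4 and CDK6, 2 of 4 were tested, and the others, Cdkn2a and Cdkn2b, had 0 counts in every library. Cdkn2c was likewise lower in the BGP libraries than in those of NaHPO4 (log2FC -0.20, edgeR FDR 0.00763). Among 11 pocket proteins, other E2Fs and DP proteins, 3 rose with NaHPO4, against 3.43% of all tested genes called higher. With BGP 0 passed, and 1 had an unadjusted edgeR p below 0.05, against 1831 of all 13679 tested genes. Those that rose were the E2F dimer partners Tfdp1 (log2FC 0.19, edgeR FDR 0.00376) and Tfdp2 (log2FC 0.13, edgeR FDR 0.0391) and the pocket protein Rbl1 (log2FC 0.25, edgeR FDR 0.00971).

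Mitogen response genes rose with BGP in 6 of 11 cases, against 1.86% of all tested genes, with a median log2FC of 0.42. The list mixes transcription factors and feedback genes, and not all of them act upstream of D-type cyclins. Egr1, an immediate early factor, rose by a log2FC of 0.89 with BGP (SE 0.0425, edgeR FDR 4.99e-18) and fell with NaHPO4 (log2FC -0.28, edgeR FDR 2.7e-05). Dusp6, a feedback phosphatase of ERK, rose with BGP (log2FC 1.23, edgeR FDR 3.83e-16) and with NaHPO4 (log2FC 0.86, edgeR FDR 1.48e-11), as did Etv4 (log2FC 1.87 and 1.66, edgeR FDR 6.01e-14 and 2.22e-12). With NaHPO4, 3 of 11 rose and 2 fell, against 3.43% and 3.95% of all tested genes. Ccnd1 had log2FCs of 0.02 and 0.03 in the same comparisons.

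Over the 9 libraries, the genes whose log2 CPM was most like that of each called member were named by Pearson's r, as a description across libraries that share the 3 conditions. Ccnd3 was closest to Litaf (r = 0.968), Coro1c (0.961) and Gm50387 (0.958). Ccne2 was closest to Cd109 (r = 0.986), A330035P11Rik (0.952) and Map4k1 (0.948), and E2f1 to Tfdp2 (0.967), Osmr (0.964) and Hat1 (0.959). Cdkn1a was closest to Vasp (r = 0.963), Tagln (0.962) and Nhp2 (0.946). Between members, r was 0.85 for Ccne2 and E2f1, 0.81 for E2f1 and E2f2, and -0.92 for Ccne2 and Cdkn1a.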

How the data were processed

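RNA sequencing counts of 9 libraries of MC3T3-E1 cells were re-analysed, with 3 libraries each for Control, BGP and NaHPO4 taken from the labels. The authors deposited counts, whole numbers per Ensembl gene, made from stranded poly(A) libraries with the AIR software on GRCm39. The aligner, counter and use of strand are not given in the sources used here. They also deposited a TMM signal, the same counts times 1 factor per library (1.01 to 1.32), which served a single alternative.

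Genes were filtered with filterByExpr (minimum count 10; 13679 of 55416 kept), scaled by TMM and fitted over all 9 libraries with glmQLFit of edgeR 4.0.16 in R 4.3.3. For the 3 comparisons, p-values of glmQLFTest were adjusted by Benjamini-Hochberg over all tested genes, with a threshold of 0.05. Standard errors came from the F statistic. CPM per kb used the union of exons from a GENCODE annotation of GRCm39, later than the release 104 the authors used. Alternatives used DESeq2 1.42.0 and limma 3.58.1 (log2 of the TMM value plus 1). The fits were also run on simulated counts with the same spread for every gene. That setting differs from these libraries, so it does not bear on calls near the threshold. Replicates of a condition differed by more than sampling noise (chi-square per degree of freedom 2.64 to 4.9).

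All 10 members were named, from the other lists genes that passed the threshold, led by the 3 with the smallest p, and for each called member the 3 genes with the highest r of log2 CPM (prior count 2). Members and lists were chosen with earlier results of these data known. Total counts set the precision, and intervals cover the spread between these libraries only. A gene of the lists is counted but not reported here by name.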

Additional observations from a re-analysis of the deposited data

How the results depend on the processing

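Ccnd3 with BGP against Control kept its call in 18 of 18 alternative fits (log2FC 0.18 to 0.23), and so did Ccne2 with NaHPO4 against Control (0.25 to 0.36) and between the phosphates (-0.44 to -0.33). The number of members called with BGP was 2 without the filter on low counts, 0 with the log2FC minimum of 0.5, and 1 to 2 with each library left out, the higher without Control replicate 3. With NaHPO4 it was 4 with total counts, 4 without the filter, 1 at an FDR of 0.01, 0 with the minimum, and 1 to 4 with libraries left out (1 without Control replicate 1, 4 without Control replicate 3). Between phosphates it was 1 at an FDR of 0.01, 0 with the minimum, 4 with the likelihood ratio test, and 1 to 3 with libraries left out (1 without BGP replicate 2 or NaHPO4 replicate 2). E2F target genes called with NaHPO4 and between phosphates were 0 with the minimum, and 14 to 17 and 12 to 19 with libraries left out, 12 being without NaHPO4 replicate 2. The minimum removes smaller changes by construction. For the others the cause was not tested.

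Signs turned only in values that passed no test. Ccnd2 between phosphates was -0.0077 with total counts. With libraries left out, Ccnd1 ranged from -0.0123 to 0.0391 with BGP and from -0.0420 to 0.0090 between phosphates, and Ccnd2 between phosphates from -0.0062 to 0.0456. With BGP, Ccne1 ranged from -0.0112 to 0.161, E2f1 from -0.0202 to 0.0463, E2f2 from -0.172 to 0.142 and Cdkn1b from -0.0405 to 0.0205.

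Libraries with the same replicate number were hardly correlated (correlation of deviations -0.0092 to 0.0426 in 9 pairs, mean 0.0127). Pairs with unlike numbers had -0.0456 to 0.0239 (18 pairs, mean -0.00632). The highest values were those of Control with NaHPO4 under the same number (0.0301 to 0.0426), so a weak pairing there is not excluded. With the replicate number as a block, 1, 2 and 2 members were called in BGP versus Control, NaHPO4 versus Control and BGP versus NaHPO4, and 0, 17 and 19 E2F target genes. The block ended only the call of Cdkn1a between phosphates (log2FC 0.11, edgeR FDR 0.0552). Counts under about 200 per library, as for Ccne1 and E2f2, limit the precision.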
